A study of Mus musculus with 2 samples.

Results

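Pericytes and meningeal fibroblasts are minor cell types of the mouse cortex, and the genes that mark them were examined here for open chromatin. The 10 genes were chosen by name: Pdgfrb, Rgs5, Kcnj8 and Abcc9 for pericytes, Col1a1, Col1a2, Dcn and Lum for the collagenous matrix of fibroblasts, and Foxc1 and Tbx18 for the transcription factors of these lineages. They are 10 of 21938 protein-coding genes on the nuclear chromosomes of the GENCODE annotation, and all 10 were found in it. DNase-seq, which maps the places where the nuclease DNase I can cut chromatin in isolated nuclei, had been done on the left cerebral cortex of female mice, 2 in number and 36 days old. They were B6CASTF1/J, the first cross of a B6 and a CAST parent, with no treatment or engineered allele named in the labels. The labels number the sampled animals differently but name the same donor entry for both, so the libraries were taken as 2 animals without further evidence that they are. They keep the replicate numbers of the labels and belong to 1 group. No condition was therefore compared with another, and every difference below is given as values, without a test.

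Pericytes sit in the basement membrane of capillaries and are recruited by endothelial PDGF-B, which acts through the receptor encoded by Pdgfrb. Fibroblasts of the meninges and of larger vessels deposit type I collagen and small leucine-rich proteoglycans, and Foxc1 is needed for the meninges to form. Neurons and glia far outnumber both cell types in cortical tissue. In bulk tissue a low peak in few cells and a low peak in many cells cannot be told apart.

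The libraries held 69208 and 69128 peaks, in that order of replicates, with a median width of 200 and 202 bp. A second, longer list held 120027 and 120701 peaks. Every peak of the shorter list held a base with a false discovery rate (FDR) of the cut rate under 0.001, and every peak of the longer list one under 0.05. Peak height is the authors' own signal value in arbitrary units, whose median in the shorter list was 1.17 and 0.909, and read depth is unknown. Over 45612 regions with 1 peak in each library the height in replicate 2 was a median of 0.744 of that in replicate 1, so heights were ranked within a library. Of 10 marker genes of excitatory neurons 10 had a promoter peak in both libraries, and of 10 liver genes 1 had one.

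A gene was counted as having an open promoter when each library had a peak within 1 kb of one of its annotated starts. The peaks of the libraries did not have to overlap. Of the 10 genes 5 met this, Rgs5, Kcnj8, Col1a1, Foxc1 and Tbx18, against 61.2% of all protein-coding genes. With the longer lists the count was 8 of 10, against 65.6% of all. A peak of the shorter list lay over the main start itself in both libraries for 3 of 10 genes, Rgs5, Foxc1 and Tbx18, against 39.7% of all. Col1a2 and Lum had no promoter peak in any of the 4 lists.

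The open promoters were low. Among protein-coding genes with a promoter peak in both libraries, the median height was 4.10 in replicate 1 and 2.94 in replicate 2, and all 5 genes lay under both medians. Col1a1 was highest at 3.49 and 2.59, the 41.8th and 43.8th percentile of those genes. That Col1a1 peak lay in intron 1, centred 956 bp from the main start, which itself had no peak over it. Foxc1 followed at 1.65 and 1.36, the 15.6th and 18.9th percentile. Kcnj8, Rgs5 and Tbx18 lay near the foot of that scale, at percentiles 4.30, 3.65 and 1.44 in replicate 1 and 2.62, 1.65 and 3.58 in replicate 2. Kcnj8 was above Rgs5 in both libraries, and Tbx18 was lowest of the 3 in replicate 1 and highest in replicate 2.

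**Figure D1:**
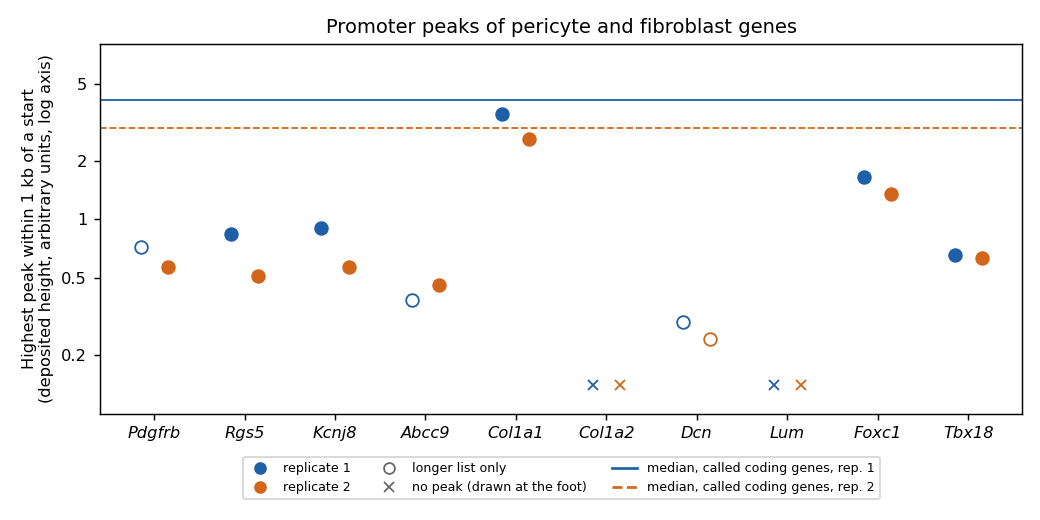
Height of the highest peak within 1 kb of a start, on a log axis in arbitrary units, for each gene in replicate 1 (blue) and replicate 2 (orange). Filled circles are peaks of the shorter list, open circles peaks of the longer list alone, crosses mark genes with no peak, and the lines are the medians of protein-coding genes with a promoter peak in both libraries, 4.10 and 2.94; every circle lies below its line.

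Pdgfrb encodes the beta receptor for platelet-derived growth factors and spans chr18:61045150-61085061 on the plus strand of mm10. Its promoter peak, chr18:61045141-61045240 over exon 1, was in the shorter list of replicate 2 at a height of 0.572. In replicate 1 it was in the longer list alone, at 0.724. The start thus had a low peak in both libraries, on either side of the stricter threshold.

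The tallest region of all 10 genes lay inside Pdgfrb. In intron 9, chr18:61068481-61068680, 23430 bp from the start, had a height of 9.06 in replicate 1 and 2.81 in replicate 2, the 98.8th and 88.8th percentile of all peaks. Upstream, chr18:61039921-61040120, 5130 bp from the start and 3821 bp from the start of another gene, had 3.39 and 1.76. Both regions were much taller than the promoter peak of the same gene, and both were lower in replicate 2 by more than the usual factor between the libraries. The log2 ratio of replicate 2 to replicate 1, centred on the median of all regions, was -1.26 in intron 9 and -0.52 upstream, where the standard deviation over all regions was 0.48. Beyond these, 4 regions, the promoter and 3 in intron 1, were called in replicate 2 alone at heights of 0.572 to 0.830. All 4 were in the longer list of replicate 1, at 0.724 to 0.906.

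Rgs5 encodes a regulator of G-protein signalling that is among the best-known transcripts of brain pericytes. Its whole window, the gene body with 20 kb on each side, held 1 region called in both libraries. That region, chr1:169655321-169655637, covered the main start at 169655501, with a height of 0.845 in replicate 1 and 0.510 in replicate 2. With a stricter rule, an overlap of at least 50% of the length of each peak, Rgs5 had no region in both.

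The Rgs5 promoter sequence, from RefSeq on GRCm38.p6, is shown because the single region called in both libraries begins in it and runs over the start. It is the 250 bases before the main start, chr1:169655251-169655500 on the plus strand, and capitals mark a match to CCAAT, the box bound by NFY, read here on the opposite strand.
Rgs5 promoter: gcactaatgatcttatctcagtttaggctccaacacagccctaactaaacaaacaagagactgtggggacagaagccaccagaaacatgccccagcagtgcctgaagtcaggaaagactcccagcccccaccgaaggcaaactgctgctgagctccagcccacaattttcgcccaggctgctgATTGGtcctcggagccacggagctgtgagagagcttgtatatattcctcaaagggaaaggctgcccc
Of 32851 RefSeq promoters of that length, 33.8% hold CCAAT on either strand.

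Kcnj8 and Abcc9 encode the pore Kir6.1 and the regulatory subunit SUR2 of the ATP-sensitive potassium channel of pericytes and vascular muscle. They lie next to each other on the minus strand of chromosome 6, with 16248 bp between them. Kcnj8 had a region of 560 bp at its start, chr6:142571121-142571680, with heights of 0.900 and 0.572, and a second in exon 2, chr6:142570181-142570418, with 0.626 and 0.438. At the Kcnj8 main start itself, 142571614, a peak lay over the base in replicate 2 and not in replicate 1. The only regions of the Abcc9 window called in both libraries were these same regions of Kcnj8, which lie beyond the end of Abcc9.

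Abcc9's own starts, 4 of them within chr6:142702218-142702315, had a peak of 140 bp in replicate 2, at 0.460. In replicate 1 a peak there was in the longer list alone, at 0.383. Replicate 2 also had a peak of 0.365 in exon 9 of Abcc9, where replicate 1 had 0.389 in the longer list alone. The channel's subunit genes were therefore alike in having a low peak at the start in each library, with Kcnj8 above the stricter threshold in both and Abcc9 in 1.

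Col1a1 and Col1a2 encode the chains of type I collagen. At the Col1a1 main start, chr11:94936224 on the plus strand, no peak of any of the 4 lists was found, and within 500 bp of it no base was listed under an FDR of 0.05 in either library. The gene counted as open because of regions inside it, the first within 1 kb of the main start and the others near annotated starts of shorter noncoding transcripts. The first, in intron 1 at chr11:94937081-94937280, 956 bp from the main start, had heights of 3.49 and 2.59. The second, also in intron 1 at chr11:94937461-94937780, lay 66 bp from the start of the processed transcript Col1a1-202 and had 1.48 and 1.46. The third, at chr11:94939381-94939560 with its centre in intron 6, had 2.69 and 1.19.

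Downstream of Col1a1, within its window, 2 more regions were called in both libraries. One near the start of Gm24877, a small RNA gene, had 0.839 and 0.802, and the other, at chr11:94970321-94970560 near the start of Sgca, which encodes the muscle protein alpha-sarcoglycan, had 2.84 and 1.40. In intron 19 a region of 1.07 was called in replicate 1 alone, and in replicate 2 it was in the longer list alone, at 0.611. A region of 0.583 that lay 7226 bp upstream was called in replicate 2 alone. The intron 1 and intron 6 sequences, plus strand of mm10, are shown as the 2 tallest of the gene body in replicate 1 and because both hold the CTCF pattern described below, and capitals mark bases inside footprints of both libraries. Footprints are short stretches that the authors called as protected from cutting.
Col1a1 intron 1, chr11:94937081-94937280: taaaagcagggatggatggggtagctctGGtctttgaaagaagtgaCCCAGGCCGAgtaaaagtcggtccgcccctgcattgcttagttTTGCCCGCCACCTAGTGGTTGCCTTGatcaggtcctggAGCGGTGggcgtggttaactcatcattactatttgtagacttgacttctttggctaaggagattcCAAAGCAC
Col1a1 intron 6, chr11:94939381-94939560: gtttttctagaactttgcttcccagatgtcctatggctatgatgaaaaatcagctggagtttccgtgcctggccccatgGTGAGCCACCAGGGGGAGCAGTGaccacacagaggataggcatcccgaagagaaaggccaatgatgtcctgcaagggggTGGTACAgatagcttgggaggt

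Col1a2, chr6:4504814-4541544 on the plus strand, had 7 annotated starts and no peak within 1 kb of any of them. Within 500 bp of its main start 0 bases in replicate 1 and 4 bases in replicate 2 were listed under an FDR of 0.05. Its 2 regions called in both libraries lay past the end of the gene. The nearer, chr6:4545881-4546020, 40457 bp from the main start, had heights of 1.60 and 0.774. The farther, chr6:4557761-4557980, 52377 bp from the main start, had 0.991 and 0.696. The closed promoter of Col1a2 is shown from RefSeq as chr6:4505370-4505492 on the plus strand, the 123 bases before the main start that lie in no annotated exon, with matches to GGGCGG, the core of the box bound by SP and KLF factors, in capitals. The downstream region is shown for contrast, with bases inside footprints of both libraries in capitals.
Col1a2 promoter: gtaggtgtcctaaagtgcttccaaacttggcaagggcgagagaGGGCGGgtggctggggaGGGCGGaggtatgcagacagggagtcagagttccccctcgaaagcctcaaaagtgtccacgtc
Col1a2 downstream, chr6:4545881-4546020: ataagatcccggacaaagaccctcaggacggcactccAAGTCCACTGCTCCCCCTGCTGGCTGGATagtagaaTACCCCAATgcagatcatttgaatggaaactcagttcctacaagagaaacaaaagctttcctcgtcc
GGGCGG occurs on either strand in 32.7% of RefSeq promoters, whose windows of 250 bases are longer than the one shown.

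Dcn and Lum encode decorin and lumican, small leucine-rich proteoglycans that bind collagen fibrils, and both lie on chromosome 10. Dcn, chr10:97479609-97518143, was the 1 gene of the 10 without a region called in both libraries. Regions were called in both for 9 of 10 genes, against 80% of all protein-coding genes. In the longer lists Dcn had 1 peak in each library, over the main start, at 0.298 in replicate 1 and 0.241 in replicate 2, percentiles 10.9 and 6.81 of those lists. All bases of the Dcn window listed under an FDR of 0.05, 176 and 201 of them, lay within 500 bp of the main start. Decorin's start thus had a weak signal that repeated in both libraries and was under the stricter threshold in both.

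Lum, chr10:97565128-97572703, had no peak at its start and no listed base within 500 bp of it. Its window held 1 region in both libraries, chr10:97582661-97582860, 17632 bp from the start and past the end of the gene. With the stricter overlap of at least 50% this region was lost too, which left 7 of 10 genes with a region in both libraries in place of 9. The share of all protein-coding genes under that stricter rule is not given. The heights of the Lum region were 0.493 and 0.634, and it was 1 of 2 regions of the 22 with the higher value in replicate 2. Its sequence, plus strand, is shown as a low region without a match to the CTCF pattern described below, with bases inside footprints of both libraries in capitals.
Lum downstream, chr10:97582661-97582860: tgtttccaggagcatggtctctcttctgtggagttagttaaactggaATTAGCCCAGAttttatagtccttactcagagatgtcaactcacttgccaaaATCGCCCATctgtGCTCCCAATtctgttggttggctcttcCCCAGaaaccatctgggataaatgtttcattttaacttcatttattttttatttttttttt

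Foxc1 encodes a forkhead factor of mesenchyme and meninges, and its single exon lies at chr13:31806633-31812476 on the plus strand. The region over its start, chr13:31806461-31806760, had heights of 1.65 and 1.36, and a second in the exon, chr13:31807321-31807600, had 0.717 and 0.561. The tallest region in the Foxc1 window was not at the promoter. It lay 5273 bp upstream at chr13:31801261-31801460, and 3821 bp from the start of another gene. Its heights were 4.91 and 2.24, the 90.9th and 84.6th percentile of all peaks. A further one, 13928 bp upstream at chr13:31792611-31792800, had 1.22 and 0.870. The exon held a further region in replicate 2 alone, at 0.555, which was in the longer list of replicate 1 at 0.669. The upstream region and the promoter are shown because they are the tallest pair of the gene. In the first, capitals mark footprint bases of both libraries, and in the second, the 237 bases chr13:31806396-31806632 from RefSeq, CCAAT read on the opposite strand and GGGCGG.
Foxc1 upstream, chr13:31801261-31801460: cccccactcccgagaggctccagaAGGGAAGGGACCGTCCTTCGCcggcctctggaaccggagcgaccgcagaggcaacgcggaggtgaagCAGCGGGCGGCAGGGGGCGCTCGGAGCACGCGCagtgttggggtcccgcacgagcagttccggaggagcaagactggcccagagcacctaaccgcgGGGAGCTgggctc
Foxc1 promoter: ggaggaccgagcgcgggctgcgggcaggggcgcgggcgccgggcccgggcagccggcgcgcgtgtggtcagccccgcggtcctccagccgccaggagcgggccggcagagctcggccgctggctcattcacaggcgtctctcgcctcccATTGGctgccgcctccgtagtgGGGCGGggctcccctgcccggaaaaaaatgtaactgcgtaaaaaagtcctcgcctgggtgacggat

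Tbx18 encodes a T-box factor of mural cells and of mesenchyme around the heart and ureter. Its start, chr9:87731260 on the minus strand, was covered by a wide and low region of 1146 bp, chr9:87730424-87731569, with heights of 0.657 and 0.634. The next region, chr9:87729244-87730400, was 1157 bp wide and had 0.541 and 0.460, and it lay in intron 1 by the start of D030062O11Rik, a transcript on the opposite strand. These 2 were the widest of the 22 regions, which were otherwise 140 to 560 bp wide. At 815 and 945 bases, Tbx18 had the most bases listed under an FDR of 0.05 within 500 bp of its main start of the 10 genes.

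Tbx18 had 3 other regions in both libraries. In intron 6, chr9:87708261-87708423 had 1.59 and 0.578, with a centred log2 ratio of -1.03. Upstream, a region 9570 bp from the start and near the start of Gm37374 had 1.33 and 0.572, and one 7170 bp from the start had 0.389 and 0.539. Another 3 regions were called in replicate 1 alone and 2 in replicate 2 alone, all with heights of 0.381 to 0.480. The intron 6 sequence, plus strand, is shown because it holds an exact match to the CTCF pattern, with footprint bases of both libraries in capitals.
Tbx18 intron 6, chr9:87708261-87708423: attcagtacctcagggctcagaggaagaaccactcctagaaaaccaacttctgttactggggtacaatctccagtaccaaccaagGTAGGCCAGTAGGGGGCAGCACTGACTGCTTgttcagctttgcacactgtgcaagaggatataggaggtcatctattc

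**Figure D2:**
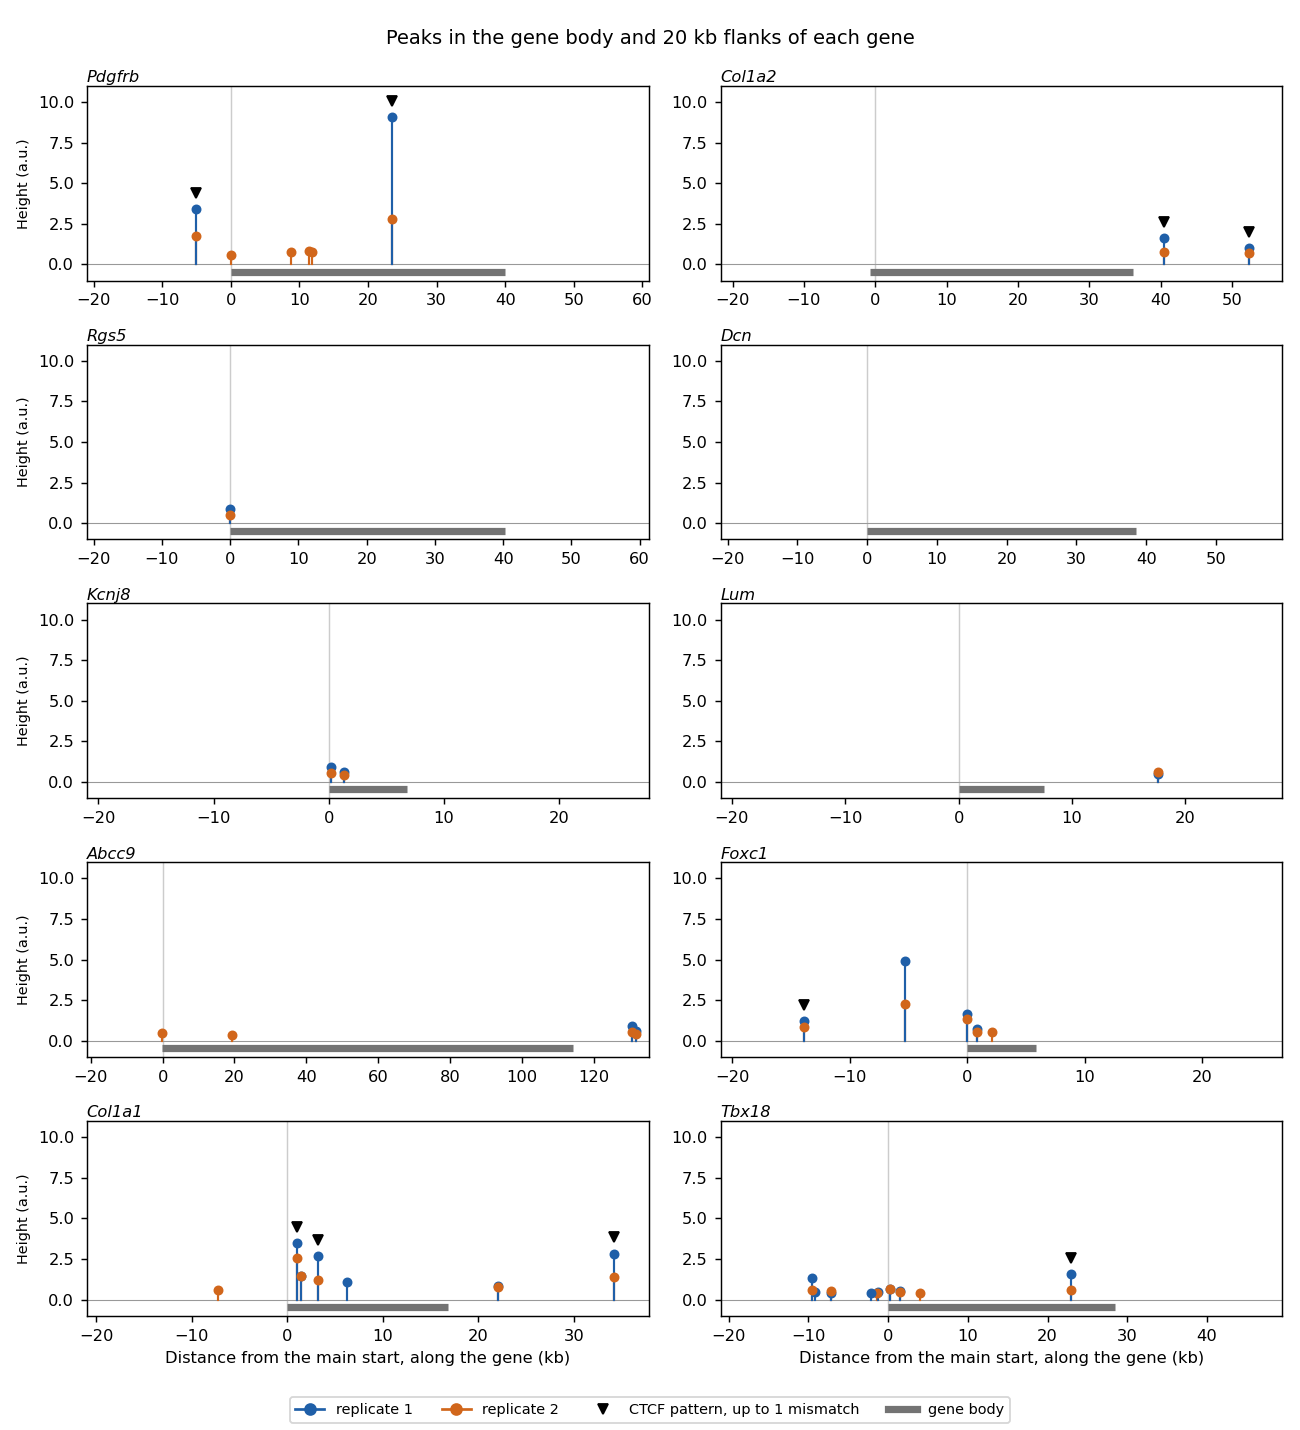
Peaks of the shorter lists in the gene body and 20 kb flanks of each gene, by distance in kb from the main start along the gene, with height in arbitrary units in replicate 1 (blue) and replicate 2 (orange). Triangles mark regions called in both libraries with a CTCF pattern of at most 1 mismatch; the tallest point is the Pdgfrb intron at 9.06, and the Dcn panel is empty.

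Across the 10 windows, 711.67 kb once overlaps were merged, 36 regions were called in at least 1 library. Of these 22 were called in both (24 when the pair shared by Kcnj8 and Abcc9 is listed under each), 4 in replicate 1 alone and 10 in replicate 2 alone. The 22 had a median height of 1.27 and 0.735, and replicate 2 had the lower value in 20 of 22, as it did in 84.9% of all regions with 1 peak in each library. Of the 22 regions 12 were within 1 kb of an annotated start of some gene, 2 were exonic, 2 intronic and 6 intergenic. In all 48886 regions called in both libraries, those classes held 42.8%, 4.20%, 26.3% and 26.7%. All 22 held at least 1 footprint in each library, as did 95.6% and 95.0% of all regions.

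The genes differed more in how much of their window was accessible than in whether anything was. Col1a1 had 0.880 regions per 10 kb, Foxc1 0.873 and Tbx18 0.730, the 86.0th, 85.8th and 80.7th percentile of protein-coding genes. Kcnj8 had 0.428, above the median of 0.341 over protein-coding genes. The other 6 lay below that median, from 0.261 in Col1a2 and 0.250 in Pdgfrb through 0.210 in Lum, 0.129 in Abcc9 and 0.125 in Rgs5 to 0 in Dcn. The median of the 10 genes was 0.255.

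The bases listed under an FDR of 0.05 gave a finer scale with a value in each library. Tbx18 had 99.7 such bases per kb in replicate 1 and 84.0 in replicate 2. Foxc1 had 63.2 and 68.9, and Col1a1 had 35.0 and 42.8. The ranges of these 3 genes lay apart from each other and above those of the other 7, against a median over protein-coding genes of 26.9 and 28.3.

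Kcnj8 had 25.5 and 25.0 listed bases per kb, and Pdgfrb 15.1 and 28.6, so these neighbours in the order could not be separated. Abcc9, with 10.0 and 12.4, and Col1a2, with 9.17 and 10.9, also overlapped. Rgs5 had 7.86 and 8.64, Lum 5.55 and 6.07, and Dcn 2.24 and 2.56. The pericyte genes and the proteoglycan genes therefore lay at or under the median, apart from Pdgfrb in replicate 2.

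**Figure D3:**
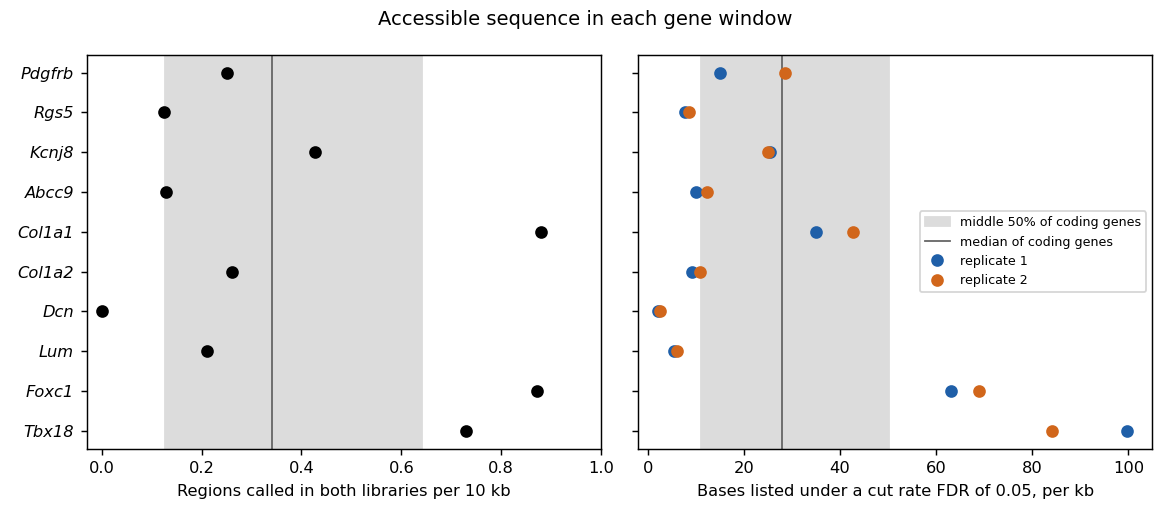
Left, regions called in both libraries per 10 kb of the gene window (20 kb beyond each end); right, bases listed under an FDR of 0.05 per kb in replicate 1 (blue) and replicate 2 (orange). The line is the median and the grey band the middle 50% of protein-coding genes; Col1a1, Foxc1 and Tbx18 lie right of the band on the left, and Foxc1 and Tbx18 on the right, while Dcn is lowest on both.

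Footprint counts, not divided by the length of the window, gave a similar order at the top. Tbx18 had 44 footprints in replicate 1 and 43 in replicate 2, Foxc1 23 and 23, Col1a1 19 and 26, and Pdgfrb 12 and 22. Abcc9 had 12 and 12, Kcnj8 9 and 9, Col1a2 8 and 6, Rgs5 5 and 4, Lum 5 and 3, and Dcn 2 and 0. The Abcc9 window was the longest, at 154 kb, and per 10 kb Abcc9 had 0.777 in each library against 1.92 in Kcnj8. By mean footprints per 10 kb, the percentiles among protein-coding genes were 89.4 for Tbx18, 82.8 for Foxc1, 74.2 for Col1a1 and 49.1 for Pdgfrb. They were 45.5 for Kcnj8, 26.7 for Col1a2, 25.5 for Lum, 24.4 for Abcc9, 20.9 for Rgs5 and 15.6 for Dcn. Pdgfrb was the gene with the largest gap between the libraries, which is also where replicate 2 had 4 further peaks.

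CpG content at the main start divided the genes. The ratio of observed to expected CpG over 500 bp on each side had a median of 0.571 over protein-coding genes. Foxc1, at 0.942, and Tbx18, at 0.754, were in the class of 0.6 and over, in which 93.5% of protein-coding genes had a promoter peak in both libraries, and both had one. Dcn, at 0.239, and Lum, at 0.187, were in the class under 0.3, in which 13.0% had one, and neither did. The other 6 genes, from 0.30 in Col1a1 to 0.566 in Kcnj8, were in the class between, in which 61.5% had one, and 3 of 6 did. Of these 3, Rgs5 had a peak over the main start itself in both libraries, Kcnj8 in replicate 2 alone and Col1a1 in neither.

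The 200 bp at the centre of each of the 22 regions were searched for 13 short patterns on both strands. The 12-letter core pattern of CTCF, the factor that anchors chromatin loops and borders, was found without mismatch in 4 of 22 regions, against 8.01% of all regions. Allowing 1 mismatch, a choice made after the values were seen, it was found in 9 of 22, against 21.8% of all. GGGCGG was found in 6 of 22, against 27.5% of all, and CCAAT in 7 of 22, against 22.9%. GTGGGAA, the core of the RBPJ site through which Notch signals, was found in 2 of 22, against 5.63% of all, and TTGGCA, bound by NFI factors, in 2 of 22, against 13.5%. The TATA box pattern TATAAA was found in 1 of 22, against 4.53%.

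Some patterns were in none of the 22 windows. TGANTCA, bound by AP-1, is in 7.93% of all regions, GGAATG, bound by TEAD factors, in 9.86%, and CCGGAAG, bound by ETS factors, in 5.30%. TGTTTAC, a forkhead pattern, is in 1.76%, AGGTGTG, a T-box pattern, in 3.38%, the EBF pattern in 0.726%, and the CArG box of SRF in 0.833%. With 22 windows, shares of this size leave few matches to be seen.

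By height in replicate 1, the regions with a CTCF pattern were among the taller ones. Of the 8 regions above the median height of replicate 1 over all regions 6 had a match with at most 1 mismatch, against 29.2% of all regions above that median. Of the 14 at or under it 3 had one, against 14.5%. Away from annotated starts 6 of 10 had one, against 31.3%, and near starts 3 of 12, against 9.11%. Exact matches were in the upstream and intron 9 regions of Pdgfrb, in intron 1 of Col1a1 and in intron 6 of Tbx18. Matches with 1 mismatch were in intron 6 of Col1a1, in the region near Sgca, in both downstream regions of Col1a2 and in the region 13928 bp upstream of Foxc1. The tall Foxc1 region 5273 bp upstream had no match at this limit. CTCF binding itself was not measured in regions with or without a match. In replicate 2 the matched regions in the Pdgfrb and Col1a1 windows lay above the median peak height of that library, 0.909. Those of Col1a2, Foxc1 and Tbx18 lay below it, at 0.578 to 0.870.

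In 8 of 9 regions bases of the match lay inside a footprint in both libraries, against 89.6% of the 10665 matches in all regions. All 12 letters did in 7 of 9, against 74.3%. The exceptions were the farther Col1a2 region, with 12 footprint bases in replicate 1 and 0 in replicate 2, and the Foxc1 region, with 12 and 7. The matches of Col1a1, Col1a2, Foxc1 and Tbx18 are shown with 9 reference bases on each side, read in the direction of the pattern, so that the match, in capitals, can be compared across genes.
Col1a1 intron 1, chr11:94937167-94937196, minus strand, exact: tcaaggcaaCCACTAGGTGGCgggcaaaac
Tbx18 intron 6, chr9:87708342-87708371, plus strand, exact: caaggtaggCCAGTAGGGGGCagcactgac
Col1a1 intron 6, chr11:94939456-94939485, plus strand, 1 mismatch: catggtgagCCACCAGGGGGAgcagtgacc
Region near Sgca, chr11:94970417-94970446, minus strand, 1 mismatch: catcttctaCCACAAGAGGGCgacaaagcc
Col1a2 nearer downstream, chr6:4545920-4545949, minus strand, 1 mismatch: actatccagCCAGCAGGGGGAgcagtggac
Col1a2 farther downstream, chr6:4557862-4557891, plus strand, 1 mismatch: ctgcttccaCCAGCGGGTGGCaacctcaac
Foxc1 upstream, chr13:31792673-31792702, plus strand, 1 mismatch: ccttcattgCCACTAGATGACgccagagct

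The libraries differed along the same line. The centred log2 ratio of replicate 2 to replicate 1 was below 0 in 9 of the 9 regions with a CTCF match, from -1.26 to -0.01 with a median of -0.59. In the 13 regions without a match it ran from -0.78 to 0.90 with a median of 0.14, and 5 were below 0. Over all regions the ratio was below 0 in 78.4% of the 10665 with a match, with a median of -0.45. It was below 0 in 40.8% of the 38221 without, with a median of 0.08.

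Other genes of the same cell types were taken as a comparison. Of 12 further genes of mural cells, the pericytes and smooth muscle cells of vessel walls, 1 had a promoter peak in both libraries, Des, which encodes the filament protein desmin, at 1.37 and 1.24. Acta2, smooth muscle actin, and Anpep, an aminopeptidase of pericytes, had none in any of the 4 lists. The count rested on replicate 2: without that library it was 5 of 12, with Cspg4, Notch3, Myh11 and Mcam added, which are named after their values were seen. With the longer lists of both libraries it was 4 of 12. The median density of regions in the mural list was 0.528 per 10 kb, above the 0.341 of all protein-coding genes. This density counts every region in the gene body and 20 kb flanks, whichever gene it belongs to. In the mural list it ran from 0.107 to 1.19. The highest value was that of Ndufa4l2, named after its values were seen, which had no promoter peak in any of the lists. Of 12 further fibroblast and meningeal genes 4 had a promoter peak, the highest being Col6a2, a chain of type VI collagen, at 3.23 and 1.54, and Fn1, fibronectin, at 1.32 and 0.864. Col3a1, the chain of type III collagen, had none in any list, and Col5a1 had 0.967 and 0.679 with the longer lists.

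Relatives and partners of the 10 genes had open promoters in 8 of 12 cases, with a median density of 0.754. Rgs4, a neuronal relative of Rgs5, had 5.74 and 3.20, and Pdgfb, which encodes the ligand of the Pdgfrb receptor, 4.54 and 2.70. Bgn, biglycan, and Fmod, fibromodulin, relatives of Dcn and Lum, had no promoter peak in any list. A further 4 relatives were looked at after their values were seen. Kcnj11, which encodes the Kir6.2 pore of neuronal potassium channels, had 3.32 and 1.50 where Kcnj8 had 0.900 and 0.572. Abcc8, its regulatory subunit SUR1, had 1.08 and 0.774 where Abcc9 had 0.383 and 0.460 with the longer lists. Pdgfra, the alpha receptor, had 3.37 and 1.75 where Pdgfrb had 0.724 and 0.572 with the longer lists. Foxc2, a vascular relative of Foxc1, had 0.979 and 1.09 where Foxc1 had 1.65 and 1.36. The receptor and channel relatives were higher in both libraries than their counterparts among the 10 genes, and Foxc2 was lower in both.

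Genes that process collagen had a promoter peak in 6 of 10 cases. P4ha1 and P4ha2, the prolyl hydroxylase subunits that stabilise the collagen helix, had 10.5 and 7.38, and 2.998 and 3.02. Lox, the collagen crosslinking enzyme, had 0.310 and 0.275 with the longer lists alone, and Pcolce, which aids procollagen cleavage, had none. P4ha1 was thus taller than any region of the 10 genes in both libraries. By the same measure, the highest peak within 1 kb of a start, Col1a1 had 3.49 and 2.59 and Col1a2 had none.

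Markers of the other cell types of the tissue set the scale. Of 12 endothelial genes 5 had a promoter peak, led by Slc2a1, the glucose transporter, at 3.50 and 2.55, and Erg, a transcription factor, at 1.25 and 0.735, while Cdh5, the cadherin of endothelial junctions, had none and Cldn5, a tight-junction claudin, had 0.523 and 0.348 with the longer lists. Of 10 excitatory neuron genes 10 had one, among them Camk2a, a subunit of a calcium-dependent kinase of synapses, at 4.04 and 2.75. Of 10 astrocyte genes 8 had one, led by Gfap at 3.61 and 1.71 and Slc1a2 at 2.76 and 1.74, while Aqp4 and S100b had one with the longer lists. Of 10 microglial genes 2 had one, Irf8 at 3.23 and 1.81 and C1qc at 1.58 and 0.999, while C1qa had none and Aif1 had 1.26 and 0.712 with the longer lists. Of 10 liver genes 1 had one, Apoh at 6.88 and 4.44, while Alb and Ahsg had none. Apoh is annotated over chr11:108343354-108414396, and its peak was counted for lying within 1 kb of any annotated start. Whether that peak lies at the Apoh main start, or also serves a neighbouring gene, was not examined. By median density the order was 0.754 in relatives and partners, 0.666 in excitatory neurons, 0.528 in mural, 0.448 in collagen processing, 0.431 in microglia, 0.368 in astrocytes, 0.255 in the 10 genes, 0.243 in endothelium, 0.222 in fibroblasts and 0.094 in liver. That density also counts regions of neighbouring genes in the flanks, so its order is not one of promoters.

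**Figure D4:**
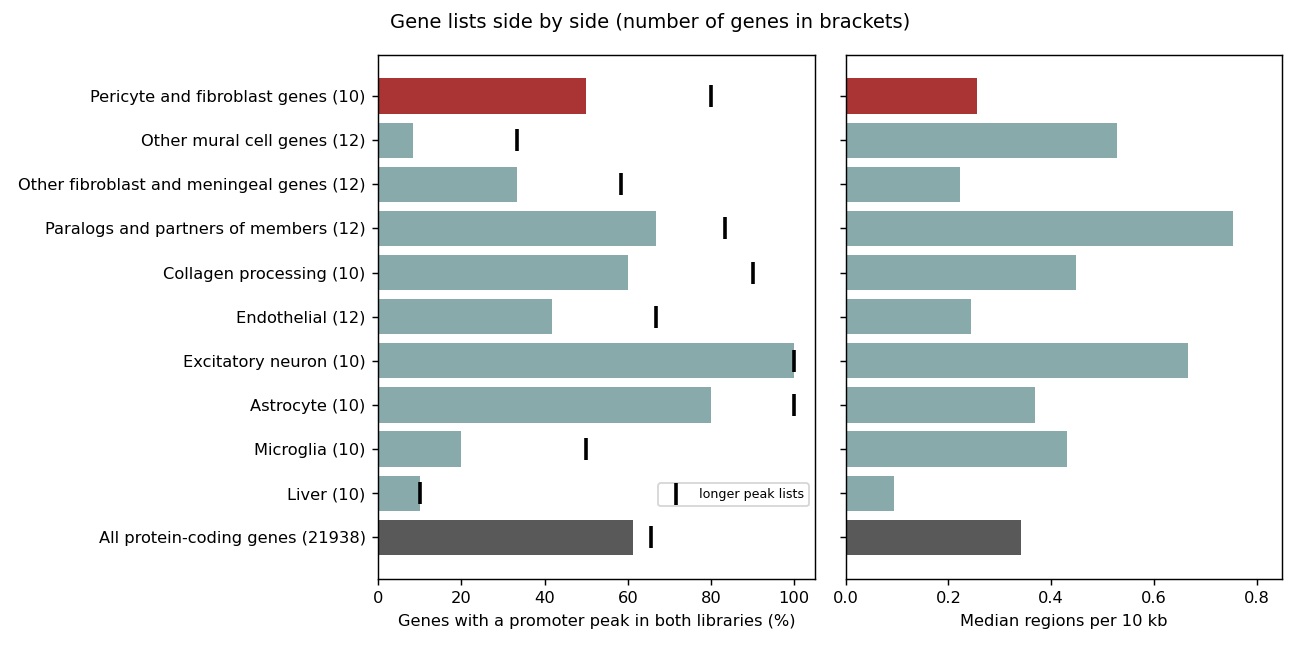
Left, percent of genes of each list with a promoter peak in both libraries (bars, shorter lists; ticks, longer lists); right, median regions per 10 kb, with the number of genes in brackets. The 10 pericyte and fibroblast genes, in red, stand at 50% on the left and 0.255 on the right, against 61.2% and 0.341 for all protein-coding genes, in dark grey.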

How the data were processed

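DNase-seq of left cerebral cortex gave 2 libraries, taken as 2 mice because the labels number the animals differently, although they name 1 donor entry for both. Per the labels and the deposited read-me text, the authors called peaks and footprints and computed FDR values on mm10 for each library alone; what tools aligned the reads and called the peaks is not given in the sources used here. The height deposited by the authors is a signal value per peak. Replicate 1 has heights in steps of 0.00608 and replicate 2 in steps of 0.00561 (tested below 1, tolerance 0.05 of a step), so each library carries a factor that was not stated. The deposited FDR of the cut rate is a p-value corrected for multiple tests and is listed under 0.05 alone, for 39.7 and 42.7 Mb. The deposited footprint value is the p-value threshold 0.01 in every entry, so positions alone were used.

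Peaks of the libraries were merged where they shared at least 1 bp. A region was called in both libraries when each had a peak in it, and it was near a start when its centre lay within 1 kb of one. Genes, starts and exons came from GENCODE M21 and sequences from GRCm38.p6, whose principal start codons read ATG in 17232 of 17236 cases. RefSeq promoters matched Rgs5, Kcnj8, Abcc9, Col1a2, Foxc1 and Tbx18; bases in annotated exons were cut off. Printed bases are the reference, and CAST alleles were not read. Depth in reads is unknown, so no interval is given. Python 3.11.15, numpy 2.4.6, pysam 0.24.0, samtools 1.23.1 and matplotlib 3.10.9 were used, and the counting was tested on simulated data with 200 genes.

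With 1 group and 2 libraries no test was made. The genes, the 9 comparison lists, the motifs and the other settings were chosen with earlier results of these data known. The text names all 10 genes and, from each other list, the 2 genes with the highest mean promoter peak in both libraries and up to 2 without one, in alphabetical order. Neighbouring genes are named where a region lies at their start, and genes named after their values were seen are marked as such. 1 gene that this rule takes is not reported here.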

Additional observations from a re-analysis of the deposited data

How the results depend on the processing

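No paired analysis was possible because the libraries form 1 group. Of the summary values recomputed under other settings, 26 stayed within 1.5 times and 17 moved further; of those for single genes and comparison lists 68 stayed and 27 moved. Without replicate 2 the mural genes with a promoter peak went from 1 to 5, and without replicate 1 the regions of Pdgfrb went from 2 to 6, of Abcc9 from 2 to 4 and of Tbx18 from 5 to 10 (8 without replicate 2). With the longer lists the genes with a promoter peak went from 5 to 8, the regions from 24 to 40, the pericyte genes with a promoter peak from 2 to 4 and the fibroblast matrix genes from 1 to 2. With peaks above the median height of their list alone, those counts were 2 genes, 8 regions and 0 pericyte genes. No share of all protein-coding genes is given for that height rule. The longer lists also gave 4 mural, 7 fibroblast, 8 endothelial and 5 microglial genes in place of 1, 4, 5 and 2. With an overlap of at least 50% of each peak, 1 pericyte gene was left, astrocyte genes went from 8 to 4, and Rgs5 and Lum had no region. Within gene bodies there were 12 regions, 76.5 footprints (mean of the libraries, 143.5 with flanks) and a median of 22.6 listed bases per kb (15.6 with flanks), and with an FDR under 0.001 that median was 9.01. Without regions within 1 kb of a start 11 were left. Leaving out 1 library gave 28 to 38 regions, 2 to 4 pericyte genes and 5 to 7 genes in all with a promoter peak, the higher values being those without replicate 1. Settings added after the data were seen gave 3 genes with a peak over the main start, 5 genes with coding starts alone, and 9 regions with a CTCF pattern at up to 1 mismatch against 4 exact. The cause of these moves was not tested beyond what each setting itself changes. The promoter calls of Pdgfrb, Abcc9 and Dcn depend on the FDR threshold, that of Rgs5 on the overlap and height rules, and those of Kcnj8 and Tbx18 on the height rule. Those of Col1a1 and Kcnj8 are lost when the peak must lie over the main start in both libraries. Heights carry an unstated factor per library, and 2 libraries give no estimate of spread beyond the values printed.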
